A study of Homo sapiens with 18 samples.

Results

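The data cover the LIS1+/- arm of a course from human embryonic stem cells (hESC) to brain organoids. Members were the 3 libraries labelled as Day 12 LIS1+/- organoids and the 3 labelled as LIS1+/- stem cells, 6 of the 18 libraries of the study. They were taken by genotype and stage as the labels give them, and no measured value was used to choose them. The cells are WIBR3, an established hESC line, carrying 1 intact copy of LIS1 in both groups. The 3 Day 5 LIS1+/- libraries lie between the ends of the course, and the 6 LIS1+/+ libraries of Day 12 and hESC serve as the wild-type course. Organoids are clusters of cells that organise into tissue in culture, and the study describes its own as cortical.

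LIS1, with the gene symbol PAFAH1B1, binds the motor protein dynein, which carries cargo along microtubules and positions nuclei in dividing and migrating cells. Loss of 1 copy in people causes lissencephaly, in which the cortex lacks its folds. When stem cells take a neural path they shut down the network around POU5F1 and NANOG, and the neuroepithelium that forms is divided into regions by signals such as WNT, BMP and FGF from local centres. Notch signalling then keeps part of the progenitors dividing while others become neurons. All values are tags near the 3' ends of transcripts, counted by MARS-seq on bulk RNA, and are given as CPM, counts scaled to a common library size, after correction for library composition. They compare 1 gene between samples and not different genes with each other.

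Several limits apply to every stage comparison. Day 12 and hESC libraries carry different pool numbers in the file names, so stage and pool cannot be told apart. Nothing in the labels ties the replicate libraries to separate cultures, so p-values measure only the spread between libraries, which may be technical. The number of LIS1+/- clones is not stated in the labels, and the file names of all 3 hESC LIS1+/- libraries carry the number 1. Counts over genes were 1513390, 3237210 and 3232825 in the Day 12 LIS1+/- libraries and 1839347, 2407301 and 2984093 in the hESC LIS1+/- libraries. Alignments set aside as not unique made up between 26.5% and 28.2% at Day 12 against between 34.9% and 52.5% in hESC, and their part in the results was not tested. Along the first principal component of all 18 libraries, which held 80.8% of the variance, the Day 12 LIS1+/- libraries lay between 46.34 and 47.79, the Day 5 ones between 30.7 and 33.69 and the hESC ones between -71.47 and -68.83. An earlier analysis of these data set 3 libraries apart. They are replicate 2 of Day 12 LIS1+/+, replicate 2 of Day 5 LIS1+/- and replicate 3 of hESC LIS1+/+, and none of them is among the 6. In bulk RNA, fewer cells of a type and less RNA per cell cannot be told apart.

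Over the full course 6362 of 12215 tested genes changed in LIS1+/- cells (52.1%, edgeR quasi-likelihood test, adjusted p under 0.05). Of these, 3257 rose (26.7% of tested genes) and 3105 fell (25.4%). Scaled to library totals alone the split was 4215 higher and 2299 lower, since that scaling moves the median log2 change of all genes to 0.298 from 0.04. At least 4-fold changes were made by 1180 rising genes (9.66%) and 804 falling genes (6.58%), 16.2% together. At least 2-fold changes were made by 35.8% of tested genes and at least 16-fold changes by 5.34%, with 361 rising (2.96%) and 291 falling (2.38%). The risen genes together held 27.5% of all counts at Day 12 against 9.27% in hESC, and the fallen ones 30.4% against 54.4%. No overlap between the 3 Day 12 and the 3 hESC libraries was found for 7616 genes (62.3%), with Day 12 the higher in 31.9% and the lower in 30.5% of tested genes.

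**Figure D1:**
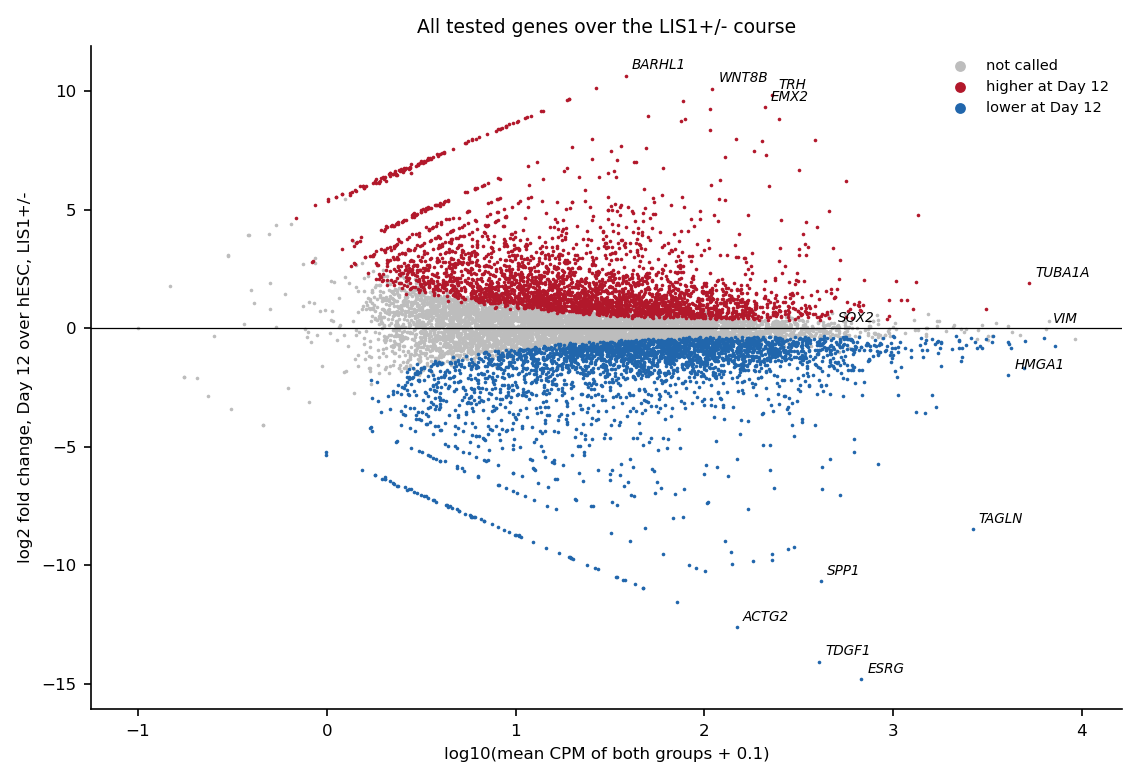
Log2 fold change of Day 12 LIS1+/- over hESC LIS1+/- (vertical axis) against the mean level of both groups in log10 of CPM + 0.1 (horizontal axis), 1 point per tested gene, with genes that passed coloured. The 3257 risen and 3105 fallen genes spread from 10.66 at BARHL1 to -14.8 at ESRG, and fitted values of genes with no count in 1 group depend on the prior count.

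The largest falls were of transcripts that mark stem cells and of a smooth muscle actin, and most of these genes had no tag left at Day 12. ESRG, a long noncoding RNA made in human pluripotent cells, had no count in the 3 Day 12 libraries against 1439, 1317 and 1309 CPM in the hESC libraries, at least 3868-fold lower (like all such bounds here, computed with the Day 12 group set to a floor of 3 counts in all). TDGF1, a co-receptor for the ligand NODAL, had no count against 890, 846 and 709 CPM, at least 2300-fold lower. In both cases every hESC library lay far above every Day 12 library. TDGF1P3, a processed copy of TDGF1 whose reads could be split with it, is uncertain for that reason and is not counted as a second observation. FOXD3, a transcription factor of stem cells and neural crest, fell at least 264-fold, and CDH1, the cadherin of epithelia and stem cells, at least 223-fold, with 67.6, 69.9 and 89.1 CPM in hESC. SPP1, a secreted phosphoprotein, fell to 0.618, 0.569 and 0.285 CPM at Day 12, against 912, 814 and 761 CPM in hESC (log2 fold change -10.66 ± 0.30, SE, n = 3 each, adjusted p = 6.558e-20). LINC01405, SCGB3A2, TIMP4, the metallothionein MT1G and the cholesterol hydroxylase CH25H had no count at Day 12 and fell at least 394, 262, 214, 186 and 195-fold.

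Among the largest rises were regulators of the dorsal and caudal forebrain, and 7 of the 12 leading genes had no count in hESC. BARHL1, a homeobox gene of the developing diencephalon and hindbrain, stood at 68.0, 48.1 and 113 CPM at Day 12 against no count in hESC, at least 171-fold higher. EMX2, a homeobox regulator of the dorsal cortex, stood at 479, 435 and 335 CPM against 0, 0 and 1.44 CPM (9.32 ± 0.45, adjusted p = 2.771e-13). Each Day 12 library of both genes lay above each hESC library. WNT8B, a WNT ligand of the cortical hem, had 226, 179 and 254 CPM at Day 12 against 1 count over the hESC group, a ratio of 1434 (95% counting interval 257 to 56700). DMRT3, a factor of the dorsal telencephalon, had 164, 165 and 133 CPM against 1 count (ratio 998, interval 179 to 39500), and the thyrotropin-releasing hormone gene TRH 371, 585 and 415 CPM against 3 counts (ratio 1043, interval 357 to 5060). The proneural factor NEUROG1 rose at least 91.1-fold, the zinc finger gene MECOM at least 122-fold, and the dorsal neural tube factors ZIC1 and PAX3 at least 57.8-fold and 60.1-fold. PRSS33, LINC00982 and C1orf61 were the others, with averages of 38.1, 37.5 and 215 CPM at Day 12 and with no count in hESC for the first pair. The counting intervals and floors cover counting error only.

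**Figure D2:**
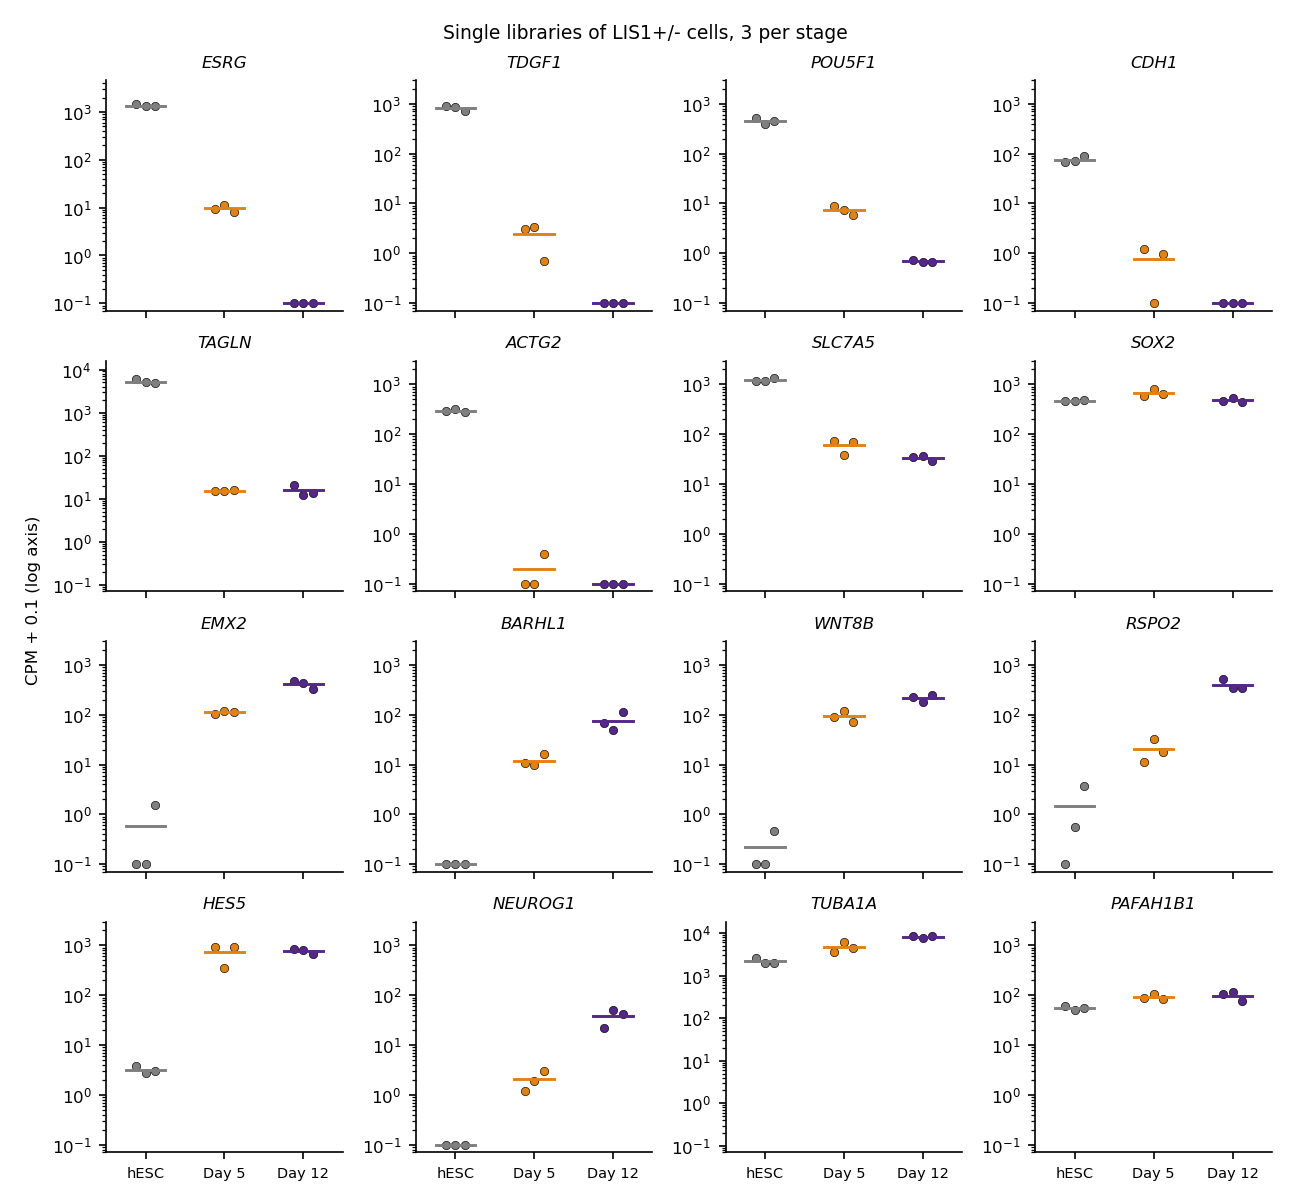
Level of 16 genes in each LIS1+/- library at hESC, Day 5 and Day 12 (CPM + 0.1, log axis), with points for libraries and bars for group means. ESRG, TDGF1, CDH1 and ACTG2 drop to no count at Day 12, SOX2 averages 478 CPM at Day 12 and 473 CPM in hESC, and EMX2, BARHL1, WNT8B and RSPO2 climb between Day 5 and Day 12.

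Genes of the pluripotency network fell with 1 exception among those tested. Of 27 listed genes in the files 25 were tested, 24 fell and none rose (the background of falling genes is 25.4%), with a median log2 fold change of -6.18, or -4.07 with genes lacking a count set at their bound, beside 0.04 over all genes. POU5F1, the core factor also called OCT4, stood at 0.618, 0.569 and 0.570 CPM at Day 12 against 509, 400 and 458 CPM in hESC (-9.51 ± 0.27, adjusted p = 6.558e-20); it has near-identical copies elsewhere in the genome, which makes its count uncertain. NANOG had no count against 27 counts over the hESC group, at least 11.8-fold lower, and PRDM14, a repressor that guards pluripotency, no count against 138 counts, at least 60.5-fold lower. The member that did not pass was SOX2, a factor shared by stem cells and neural progenitors, at 460, 532 and 440 CPM against 465, 466 and 489 CPM (0.01 ± 0.17, adjusted p = 0.951). Its Day 12 and hESC libraries overlapped. LIN28A, an RNA-binding protein that blocks let-7 microRNAs, kept a substantial level at Day 5. It had 681, 873 and 628 CPM in hESC, 338, 394 and 466 CPM at Day 5 and 28.4, 38.4 and 60.1 CPM at Day 12.

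Both de novo DNA methyltransferases tested fell. DNMT3B, the de novo enzyme of early embryonic cells, fell to 47.0, 50.9 and 43.6 CPM at Day 12, against 1176, 1192 and 1223 CPM in hESC (-4.66 ± 0.17, adjusted p = 1.434e-17). DNMT3A, the other de novo enzyme, fell by 1.15 ± 0.16 on the log2 scale, and the maintenance enzyme DNMT1 did not pass (-0.27 ± 0.15, adjusted p = 0.125). TET2, which oxidises methylated cytosine, averaged 10.9 CPM at Day 12 against 2.25 CPM in hESC (2.28 ± 0.58, adjusted p = 0.00179). In the list of methylation and demethylation genes 2 of 12 tested members rose and 2 fell, fewer than the background share in either direction. The chromatin protein HMGA1 and TRIM71, both of the LIN28 and let-7 timing circuit, fell (-1.97 ± 0.49 and -2.54 ± 0.33). HMGA2, a target of let-7, rose by 0.57 ± 0.21, a call lost in 2 of the 6 fits that left out 1 library. In the list of developmental timing genes 1 of 10 tested members rose and 5 fell.

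Nodal signalling, which maintains human pluripotency and induces mesendoderm, lost its ligand and inhibitors. Of 18 tested members of 21 in the files 9 fell and 4 rose. NODAL had 2 counts over the Day 12 group against 135 over the hESC group, a ratio of 88.7 in favour of hESC (interval 24.1 to 740). Its inhibitors LEFTY1 and LEFTY2 averaged 0.602 and 1.28 CPM at Day 12 against 257 and 205 CPM in hESC, and both fell (-8.97 ± 0.44 and -7.39 ± 0.46). FOXH1, the DNA-binding partner of the SMADs in this pathway, had 3 counts against 1818. By Day 5 LEFTY1 already stood at 0.748, 0.366 and 0.293 CPM, within the range of its Day 12 libraries. EOMES, a marker of mesendoderm and also of intermediate progenitors of the cortex, had no count in hESC and 1.24, 6.54 and 4.56 CPM at Day 12 (at least 10.4-fold higher, adjusted p = 0.00065). SMAD3, a transducer of the pathway, rose by 1.63 ± 0.21.

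Most of the adhesion genes tested fell, the epithelial ones among them. CDH2, the cadherin of neuroepithelium, rose to 706, 730 and 837 CPM at Day 12, against 398, 427 and 453 CPM in hESC (0.83 ± 0.18, adjusted p = 0.000353), and CDH4, a cadherin of the developing retina and brain, rose by 2.67 ± 0.32. The epithelial adhesion molecule EPCAM fell to 8.66, 4.84 and 10.5 CPM, against 1005, 989 and 1122 CPM (-7.03 ± 0.43, adjusted p = 1.97e-10). In these genes no Day 12 library overlapped an hESC library. The tight-junction gene CLDN7 had no count at Day 12 and fell at least 114-fold, and the splicing regulators of epithelia ESRP1 and ESRP2 had 3 counts against 485 and 1 count against 539. Of 19 tested cadherin and claudin genes 12 fell and 3 rose (15.8%, below the background of 26.7%), with a median of -5.52 (-4.96 at the bounds). Keratins moved in the same direction, with KRT18 at 131 ± 7.39 CPM at Day 12 and 953 ± 116 CPM in hESC (SD, n = 3 each).

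Genes of the contractile cytoskeleton, most of them known targets of serum response factor (SRF), fell almost without exception. Of 31 tested members of 33 in the files 28 fell and 2 rose, with a median log2 fold change of -2.83. TAGLN, an actin-binding protein of smooth muscle, fell to 21.0, 12.0 and 13.1 CPM at Day 12, against 5929, 4999 and 4848 CPM in hESC (-8.48 ± 0.46, adjusted p = 1.054e-10). ACTG2, the enteric smooth muscle actin, had no count against 296, 321 and 274 CPM and was at least 850-fold lower. Skeletal actin ACTA1 stood at 1.24, 0.285 and 0.285 CPM against 496, 449 and 427 CPM (-9.79 ± 0.35), and the myosin light chain MYL9 at 26.6, 13.9 and 20.8 CPM against 944, 914 and 868 CPM (-5.52 ± 0.24). All hESC libraries lay well above all Day 12 libraries for these genes. Structural genes of most cell types also fell, with vinculin (VCL) at 209 ± 29.5 CPM at Day 12 and 2423 ± 55.6 CPM in hESC, and tropomyosin TPM1 at 230 ± 20.01 CPM and 2726 ± 151 CPM (SD, n = 3 each). SRF itself fell by 1.38 ± 0.17. MYLK, the gene of the kinase that activates smooth muscle myosin, rose to 41.4, 27.9 and 38.5 CPM against 6.94, 10.4 and 7.57 CPM (2.09 ± 0.31). Tags near the 3' end do not tell which of its transcripts rose. The leiomodin LMOD1 rose by 2.86 ± 0.55. Summed over 4 muscle markers, levels ranged from 0 to 0.618 CPM per library at Day 12 against 9.47 to 23.4 CPM in hESC, and over 4 mesenchyme markers from 20.5 to 29.1 CPM against 221 to 244 CPM; 2 muscle markers had no count at Day 12, and the part of such cells in the contractile genes was not tested.

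SRF binds a 10-base element called the CArG box. Promoter windows of 2 fallen actins and of MYLK are shown because all 3 hold this element while the genes moved in opposite directions. A gene can have several RefSeq starts, and only windows with the element are shown. Tags near the 3' ends do not tell which start made the counted transcripts. The MYLK window may therefore not belong to the transcript that rose. Each line gives the 250 bases before a RefSeq start on GRCh38.p14, 5' to 3' on the strand of the gene, with CArG boxes in capitals. The windows are chr2:73892758-73893007, plus strand, for ACTG2, chr1:229434095-229434344, minus strand, for ACTA1 and chr3:123620549-123620798, minus strand, for MYLK.
ACTG2: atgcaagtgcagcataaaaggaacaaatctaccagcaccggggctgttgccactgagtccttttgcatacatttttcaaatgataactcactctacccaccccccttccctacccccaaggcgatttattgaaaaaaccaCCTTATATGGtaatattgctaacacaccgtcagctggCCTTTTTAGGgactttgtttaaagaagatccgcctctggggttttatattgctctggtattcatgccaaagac
ACTA1: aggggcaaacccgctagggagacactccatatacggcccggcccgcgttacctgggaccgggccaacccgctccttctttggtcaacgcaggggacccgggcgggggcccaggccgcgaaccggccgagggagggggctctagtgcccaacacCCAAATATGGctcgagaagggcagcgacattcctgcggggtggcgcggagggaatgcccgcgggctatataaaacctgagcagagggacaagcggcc
MYLK: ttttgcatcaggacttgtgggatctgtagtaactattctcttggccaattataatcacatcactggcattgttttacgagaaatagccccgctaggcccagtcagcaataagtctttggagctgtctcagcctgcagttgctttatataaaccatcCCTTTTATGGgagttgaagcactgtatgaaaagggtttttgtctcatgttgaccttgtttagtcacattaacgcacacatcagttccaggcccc
ACTG2 holds 2 boxes, which end 100 and 63 bases before the start, ACTA1 holds 1 that ends 87 bases before it, and MYLK holds 1 that ends 84 bases before it. Searched on both strands, a CArG box was present in 407 of 35116 promoter windows of this length (1.16%) and in 11 of the 49 windows of the contractile list (22.4%), for which 29 of 33 genes were matched. Those genes were ACTA1, ACTG2, MYL7, ACTN1, CNN2, FLNA, SRF, TGFB1I1 and TPM4, which all fell (FLNA without a call when Day 12 replicate 2 was left out), MYLK, which rose, and ACTC1, which was too low to test. A match describes letters in the window and is not a measured binding site.

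Amino acid supply and stress-response genes formed another group that fell. In the list of the unfolded protein and integrated stress responses 22 of 30 tested members fell and 2 rose, with a median of -1.05. SLC7A5, the large amino acid transporter, fell to 35.2, 35.6 and 28.5 CPM at Day 12, against 1153, 1172 and 1316 CPM in hESC (-5.20 ± 0.24, adjusted p = 2.833e-15). Its partner chain SLC3A2 fell by 2.82 ± 0.14. So did the asparagine synthetase ASNS (-3.23 ± 0.22), the mitochondrial folate enzyme MTHFD2 (-3.25 ± 0.18) and the glutathione-degrading enzyme CHAC1 (-4.45 ± 0.45). ATF4, the factor that switches on these genes under amino acid shortage, stood at 267, 265 and 280 CPM against 965, 1026 and 792 CPM (-1.78 ± 0.16, adjusted p = 9.859e-10). The 2 members that rose were HSPA5, the chaperone BiP of the endoplasmic reticulum (0.81 ± 0.27), and the stress factor ATF3 (0.72 ± 0.23), each with a call lost in 2 of the 6 fits that left out 1 library. The composite element read by ATF4 is written TGATGNAA. It was found on either strand in 1104 of the 35116 windows (3.14%) and in 4 of 44 windows of this list (9.09%, 28 of 31 genes matched), those of ASNS, CHAC1 and HERPUD1, which fell, and ATF3. ASNS and CHAC1 are printed as members with deep falls, with the element in capitals, from chr7:97872409-97872658, minus strand, and chr15:40953221-40953470, plus strand (GRCh38.p14).
ASNS: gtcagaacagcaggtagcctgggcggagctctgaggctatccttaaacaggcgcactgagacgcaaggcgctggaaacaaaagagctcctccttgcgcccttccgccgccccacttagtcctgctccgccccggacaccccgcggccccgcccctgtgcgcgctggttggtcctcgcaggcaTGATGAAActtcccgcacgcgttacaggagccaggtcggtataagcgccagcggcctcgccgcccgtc
CHAC1: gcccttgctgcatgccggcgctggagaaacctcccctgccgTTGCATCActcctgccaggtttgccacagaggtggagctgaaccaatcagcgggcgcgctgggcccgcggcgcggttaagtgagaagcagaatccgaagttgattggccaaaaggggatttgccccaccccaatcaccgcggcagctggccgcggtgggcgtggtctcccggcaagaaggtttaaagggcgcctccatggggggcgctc
In ASNS the element ends 60 bases before the start, and in CHAC1 it lies on the opposite strand and ends 201 bases before it.

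Housekeeping machinery drifted downward by smaller amounts. Among cytosolic ribosomal protein genes 39 of 72 tested members fell and none rose, although with scaling to library totals alone 24 fell and 6 rose. Among oxidative phosphorylation genes 27 of 48 fell and 1 rose, against 17 and 2 with that scaling. The medians were -0.45 and -0.59 beside 0.04 over all genes. UQCRH, a subunit of respiratory complex III, fell to 309, 304 and 273 CPM at Day 12, against 1128, 866 and 786 CPM in hESC (-1.65 ± 0.17), and ribosomal protein gene RPS13 fell by 1.39 ± 0.20. Ribosomal protein genes have many processed copies, whose reads could be split with the parent genes, so their counts are uncertain.

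Genes of glycolysis and of the response to low oxygen moved in both directions. Of 38 tested members 20 rose (52.6%) and 10 fell (26.3%), with a median of 0.65. The falling share was near the 25.4% over all tested genes, and the rising share lay above the 26.7%. The summed level of the list was 13037 to 16372 CPM per library at Day 12 against 15754 to 18618 CPM in hESC, ranges that overlapped. SLC16A3, the lactate exporter MCT4, had 2.53, 2.70 and 3.61 CPM in hESC, 5.98, 2.92 and 2.05 CPM at Day 5 and 288, 292 and 137 CPM at Day 12 (6.28 ± 0.47 over the course, adjusted p = 1.279e-09). BNIP3, a mitophagy receptor induced by low oxygen, had 63.1, 54.1 and 64.6 CPM in hESC, 57.6, 70.2 and 69.6 CPM at Day 5 and 556, 467 and 294 CPM at Day 12 (2.85 ± 0.21). Both genes stayed within or close to the hESC range at Day 5, and in both the Day 12 replicate 3 was the lowest of its group. PFKFB4, a regulator of glycolytic flux, rose by 4.32 ± 0.33. Glycolytic enzymes were among the fallen members, with phosphofructokinase PFKP, phosphoglycerate mutase PGAM1 and lactate dehydrogenase LDHA lower (-1.59 ± 0.18, -1.64 ± 0.30 and -1.06 ± 0.26). GAPDH, ENO1 and HK1 also fell (-0.65 ± 0.27, -0.60 ± 0.21 and -0.54 ± 0.18), although their calls were lost with scaling to library totals and when single libraries were left out. GAPDH has many processed copies, which makes its count uncertain. The vasodilator peptide ADM (-4.09 ± 0.26) and the glucose transporter SLC2A3 (-3.00 ± 0.21) fell, although both are also known as genes of the low-oxygen response.

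Regional identity genes of the forebrain appeared. Of 21 tested forebrain genes of 29 in the files 15 rose and 2 fell, with a median log2 fold change of 3.83 and a background of 26.7% rising genes. OTX1, a homeobox gene of the forebrain and midbrain, rose to 352, 368 and 537 CPM at Day 12, against 5.05, 2.25 and 1.44 CPM in hESC (7.29 ± 0.29, adjusted p = 8.028e-17). NR2F1, a nuclear receptor that patterns the cortex, rose to 966, 1246 and 1130 CPM, against 16.4, 8.11 and 19.8 CPM (6.22 ± 0.23, adjusted p = 1.11e-17). In each of these the lowest Day 12 library lay far above the highest hESC library. FEZF2, DMRTA2 and LHX2, regulators of forebrain progenitors, rose by 4.58 ± 0.31, 7.23 ± 0.41 and 2.12 ± 0.31. EMX1, a marker of the dorsal cortex, did not pass (0.72 ± 0.58). The 2 that fell were HESX1, a repressor of the early forebrain and pituitary (-2.64 ± 0.49), and DLX5, a ventral telencephalic factor with 1 count at Day 12 against 71 in hESC. Summed over 4 forebrain markers the level was 603 to 825 CPM per library at Day 12, against 146 to 165 CPM in hESC.

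More caudal regions were also represented. Of 16 tested midbrain and hindbrain genes of 26 in the files 12 rose and 1 fell. EN1, which specifies the midbrain and hindbrain boundary, had 24.1, 10.5 and 32.5 CPM at Day 12 and no count in hESC, at least 48.2-fold higher. Its relative EN2 had 16.1, 14.8 and 21.9 CPM against none, at least 39.3-fold higher, and PAX5 was at least 44.1-fold higher. All Day 12 libraries had counts of these genes, and no hESC library did. LMX1A, a roof plate and midbrain floor plate factor, rose by 6.37 ± 0.56, while IRX2, an Iroquois factor, fell by 2.64 ± 0.24. The listed genes of the HOX clusters, which mark the hindbrain from its middle backwards and the spinal cord, were not detected at a testable level. None of the 28 HOX genes of that list in the files could be tested, and 21 had no count in any of the 6 libraries. The list was not a full set of the clusters.

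Neural crest and dorsal border genes moved in both directions. Of 20 tested members 8 rose and 5 fell, with a median of 0.76. Over all tested genes 25.4% fell, which was near the falling share of this list. The rising share of the list lay above the 26.7% over all tested genes. PAX7, a factor of the dorsal neural tube and crest, had 34.6, 19.1 and 18.5 CPM at Day 12 and no count in hESC, at least 47.7-fold higher. MSX1, a target of BMP signals at the neural border, rose to 74.8, 55.2 and 49.6 CPM, against 1.89, 1.80 and 1.80 CPM in hESC (4.98 ± 0.69, adjusted p = 1.236e-05). The crest factors SOX10 and SNAI2 did not pass (-1.17 ± 1.11 and -0.33 ± 0.61), and ETS1 fell, with 1 count at Day 12 against 31 in hESC. The crest factors TFAP2A and TFAP2B rose (adjusted p = 0.0253 and 0.00469). Summed over the 3 crest markers SOX10, TFAP2A and TFAP2B, levels were low, at 7.42 to 8.26 CPM per library at Day 12. In hESC the sum was 1.89 to 3.25 CPM, and 2 of the 3 markers had no count there. Genes of the eye field and optic vesicle rose in 9 of 15 tested cases and fell in 1. MITF, the pigment cell regulator, had 3.71, 1.99 and 1.71 CPM at Day 12 and no count in hESC, at least 4.82-fold higher. PMEL, a pigment granule protein, was the one that fell, to 58.1, 49.8 and 47.6 CPM, against 127, 161 and 188 CPM (-1.63 ± 0.24, adjusted p = 4.263e-06).

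Dorsal midline signals were among the strongest rises. In the list of roof plate, cortical hem and choroid plexus genes 14 of 19 tested members rose and 1 fell, with a median of 4.98 (4.51 at the bounds). RSPO2, a secreted amplifier of WNT signals, had 0, 0.451 and 3.61 CPM in hESC, 11.2, 31.8 and 17.8 CPM at Day 5 and 530, 343 and 336 CPM at Day 12 (7.89 ± 0.57). RSPO1, a ligand of the same family, rose to 357, 369 and 365 CPM at Day 12, against 2.53, 2.70 and 1.08 CPM in hESC (7.48 ± 0.38). The rise of RSPO2 was made mainly after Day 5. WNT3A, a hem ligand, rose by 5.52 ± 0.79, BMP7 by 3.27 ± 0.28 and the choroid plexus channel gene CLIC6 by 4.32 ± 0.64. TTR, the carrier protein that defines mature choroid plexus, had 13.0, 1.99 and 1.14 CPM at Day 12 and no count in hESC, and did not pass (adjusted p = 0.241). BMP4 was the member that fell (-1.84 ± 0.39).

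Of 42 tested WNT pathway genes 29 rose and 6 fell. Among the ligands WNT7B rose to 443, 630 and 422 CPM at Day 12, against 0, 0 and 2.52 CPM in hESC (8.83 ± 0.54, adjusted p = 1.129e-10). WLS, the carrier that brings WNT proteins to the cell surface, rose to 903, 853 and 897 CPM, against 29.7, 29.8 and 27.8 CPM (4.93 ± 0.25). Groups did not overlap for either gene. Among the receptors FZD7 and FZD5 fell (-2.42 ± 0.15 and -4.92 ± 0.48), while FZD10 and FZD1 rose by 4.97 and 3.99. The target genes LEF1, SP5 and AXIN2 rose by 4.53 ± 0.30, 4.65 ± 0.45 and 1.398 ± 0.21. The soluble inhibitor SFRP1 fell by 1.66.

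In the Notch pathway 13 of 21 tested members rose and 2 fell. The ligand DLL1 rose to 164, 190 and 134 CPM at Day 12, against 9.47, 5.86 and 5.41 CPM in hESC (4.61 ± 0.27, adjusted p = 1.81e-13), and LFNG, a glycosyltransferase that tunes the receptors, rose by 3.05 ± 0.22. Among the targets HES5, which holds neural progenitors undifferentiated, stood at 3.79, 2.70 and 2.89 CPM in hESC, 909, 352 and 933 CPM at Day 5 and 835, 818 and 659 CPM at Day 12 (7.96 ± 0.76 over the course). HES1 had 448, 452 and 393 CPM at Day 12 against 98.5, 80.7 and 79.7 CPM in hESC (2.33 ± 0.17). HES5 was thus near its Day 12 level in 2 of the 3 Day 5 libraries, and replicate 2 was the lowest of them. The promoters of both targets carry the sequence CTGTGGGAA, a form of the element bound by the Notch effector RBPJ, in capitals here, and they are shown because these 2 genes are the pathway's best known outputs in neural progenitors. The windows are chr1:2530264-2530513, minus strand, and chr3:194135898-194136147, plus strand (GRCh38.p14).
HES5: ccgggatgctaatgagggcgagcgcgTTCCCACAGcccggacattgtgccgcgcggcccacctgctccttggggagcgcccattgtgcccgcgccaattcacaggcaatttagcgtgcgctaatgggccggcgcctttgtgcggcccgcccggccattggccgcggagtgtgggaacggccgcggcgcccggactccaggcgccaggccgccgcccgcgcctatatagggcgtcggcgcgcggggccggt
HES1: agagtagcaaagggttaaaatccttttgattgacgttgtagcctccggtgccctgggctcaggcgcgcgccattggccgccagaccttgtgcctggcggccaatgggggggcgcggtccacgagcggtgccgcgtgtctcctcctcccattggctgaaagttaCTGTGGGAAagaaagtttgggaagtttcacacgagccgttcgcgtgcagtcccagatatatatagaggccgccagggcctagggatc
The element lies on the opposite strand in HES5, ending 215 bases before the start, and 78 bases before it in HES1. On either strand it was present in 165 of 35116 windows (0.47%) and in 2 of 23 windows of the Notch list, those 2 (8.7%, 18 of 22 genes matched). The search required every letter. A stretch nearer the start of HES5 differs from the element only in its first letter and is not marked.

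The other morphogen pathways showed mixed members. Of 12 tested hedgehog genes 9 rose and 2 fell, and the co-receptors GAS1 and BOC rose by 4.95 ± 0.23 and 4.77 ± 0.23 while GLI1, the target most used to read the pathway, fell to 6.80, 4.84 and 3.42 CPM at Day 12, against 30.9, 30.7 and 23.4 CPM in hESC (-2.55 ± 0.42, adjusted p = 1.575e-05). PTCH1, another target of the pathway, moved the other way and rose by 0.66 (adjusted p = 0.0268). FOXA2, a factor of the floor plate and of endoderm, had no count at Day 12 against 79 counts in hESC and fell at least 34.6-fold. GLI3, a transducer that acts mainly as a repressor, rose by 2.52 ± 0.20. Among BMP genes 10 of 20 rose and 2 fell, with the targets ID2 and ID3 at 194 ± 14.1 and 1653 ± 127 CPM at Day 12 and at 18.6 ± 3.17 and 413 ± 61.9 CPM in hESC (SD, n = 3 each). The antagonist NOG rose by 3.53 ± 0.40 and FST, which binds activins, fell by 3.00 ± 0.23. FGF genes were divided, with 10 of 21 rising and 9 falling. FGF18, a ligand of the caudal forebrain and midbrain, rose by 3.76 ± 0.37 and FGF2, a ligand added to stem cell media, fell by 3.63 ± 0.46, while the feedback inhibitors SPRY1 and SPRY4 moved in opposite directions (1.97 ± 0.33 and -2.02 ± 0.28). In retinoic acid handling, the degrading enzyme CYP26A1 fell to 0, 0.285 and 1.14 CPM at Day 12, against 160, 151 and 151 CPM in hESC (-7.95 ± 0.78, adjusted p = 2.289e-07), and the binding protein CRABP1 rose by 1.11 ± 0.16.

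Neural progenitor genes rose, but the filaments often used as their markers did not pass. Of 30 tested members 21 rose and 3 fell, with a median of 1.32. TTYH1, a chloride channel of radial glia, rose to 2503, 2446 and 2878 CPM at Day 12, against 109, 93.3 and 83.7 CPM in hESC (4.78 ± 0.20, adjusted p = 2.602e-16). SOX1, an early neural factor, had 37.1, 40.7 and 29.1 CPM against 2 counts over the hESC group (ratio 116, interval 31.8 to 962). Both were far above all hESC libraries. NES and VIM, the intermediate filaments of progenitors that stem cells also make, did not pass, with NES at 716, 825 and 743 CPM against 760, 808 and 594 CPM and VIM at 6041, 6176 and 6969 CPM against 6493, 6625 and 6633 CPM. The fitted changes were 0.08 ± 0.18 and -0.04 ± 0.14. PAX6, a factor of eye and cortical progenitors, had 13.6, 16.2 and 10.8 CPM at Day 12 against 3 counts over the hESC group (ratio 29.7, interval 9.91 to 146), and the radial glia genes FABP7 and SOX9 rose by 4.004 ± 0.60 and 2.29 ± 0.30.

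Early neuronal genes rose from low levels. Of 24 tested members of 33 in the files 16 rose and 4 fell, with a median of 2.72 (2.58 at the bounds). ELAVL3, an RNA-binding protein of new neurons, stood at 42.0, 58.0 and 34.2 CPM at Day 12 against 3.16, 1.80 and 2.89 CPM in hESC (4.09 ± 0.42, adjusted p = 8.495e-09). DCX, the microtubule protein of migrating neurons that is itself a lissencephaly gene, stood at 40.2, 59.8 and 48.2 CPM against 7.58, 3.61 and 3.61 CPM (3.40 ± 0.34). Neither gene's groups overlapped. TUBB3, the tubulin most used as a neuronal marker, fell to 312, 392 and 298 CPM, against 549, 491 and 502 CPM (-0.62 ± 0.18, adjusted p = 0.00469), a call lost with scaling to library totals. Also lower were INSM1, a factor of newborn neurons, (-1.42 ± 0.40), and the neuronal splicing factor RBFOX3 (-1.68 ± 0.45). Summed over 5 neuron markers the level was 412 to 535 CPM per library at Day 12 and 514 to 570 CPM in hESC, ranges that overlapped. Axon guidance and synaptic adhesion genes rose in 21 of 35 tested cases and fell in 3, with a median of 1.63. The guidance ligand EFNB1 rose to 485, 497 and 392 CPM at Day 12, against 44.2, 39.7 and 45.8 CPM in hESC (3.40 ± 0.19), SLIT2, which repels axons, by 4.87 ± 0.48, and the adhesion molecule NCAM1 by 2.33 ± 0.18, while the semaphorin receptor NRP2 fell by 4.81 ± 0.53.

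**Figure D3:**
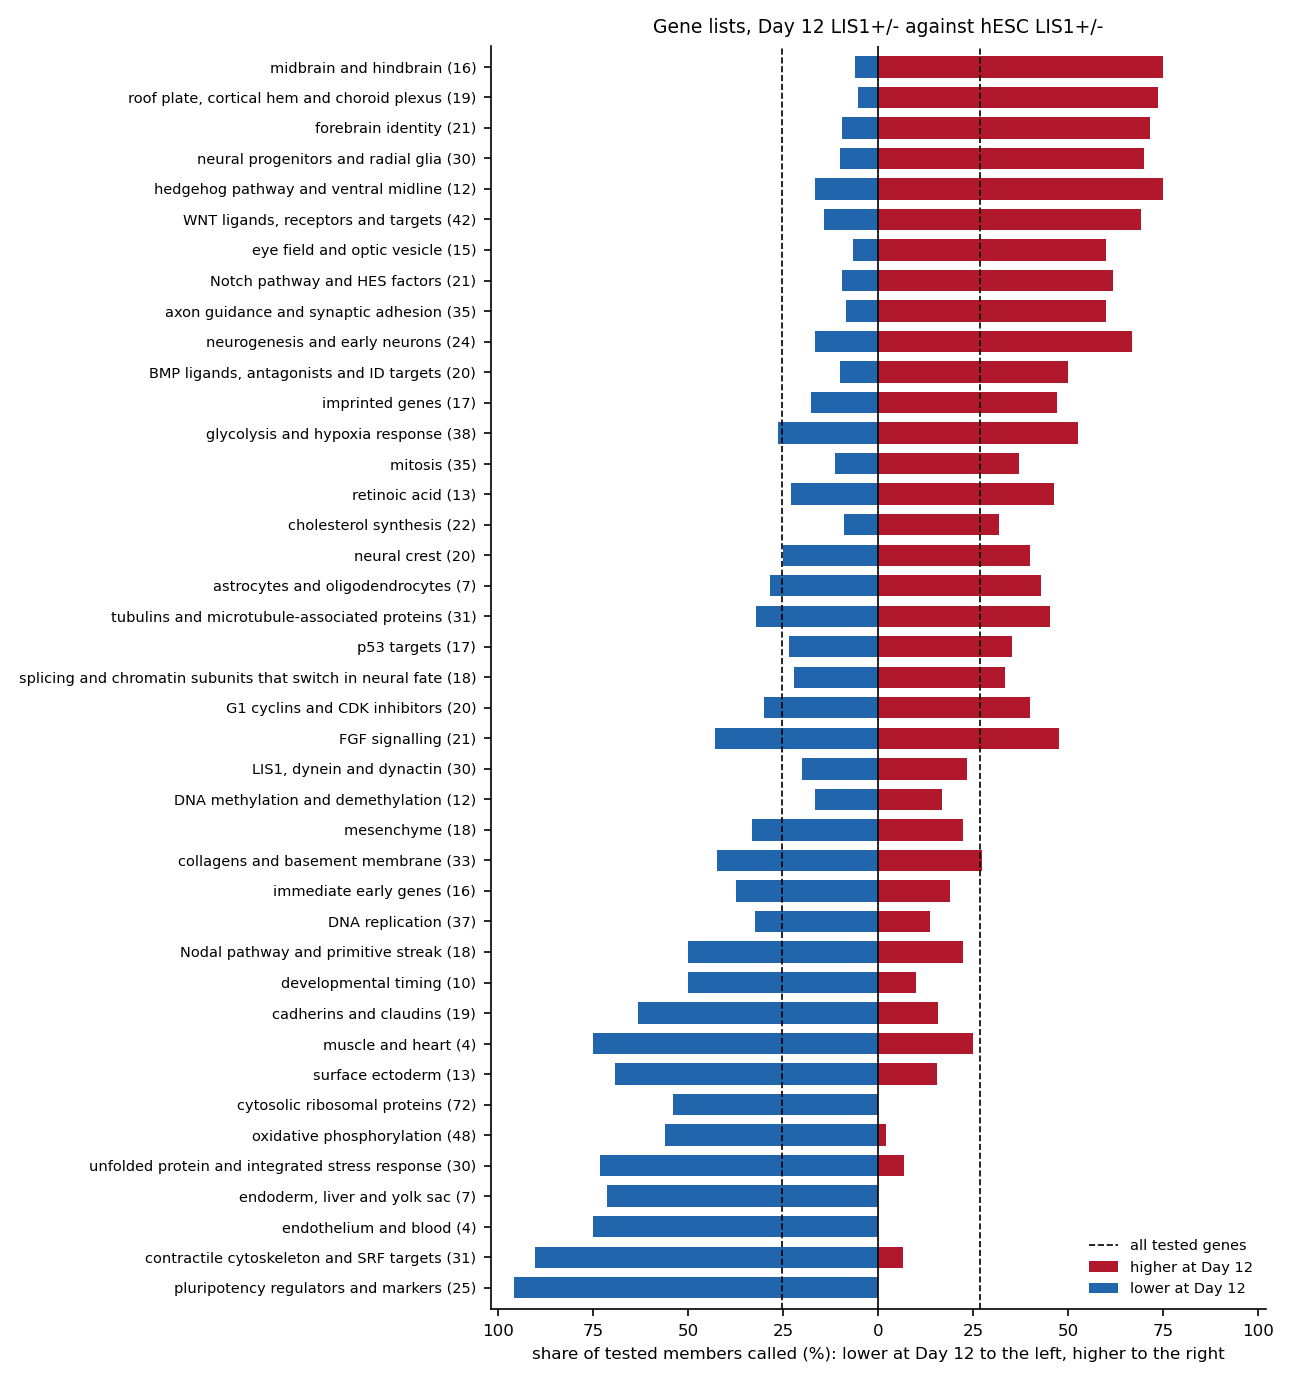
Share of the tested members of 41 gene lists that were higher (to the right) or lower (to the left) in Day 12 LIS1+/- than in hESC LIS1+/- at an adjusted p under 0.05, in percent. The dashed lines mark the shares over all tested genes, 26.7% higher and 25.4% lower, with pluripotency (96.0% lower) and contractile genes (90.3% lower) at one extreme and midbrain and hindbrain, hedgehog and roof plate genes (73.7% to 75.0% higher) at the other.

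PAFAH1B1, the gene altered in this line, rose over the course. Day 12 LIS1+/- libraries held 104, 114 and 76.1 CPM of it, against 61.2, 51.4 and 55.9 CPM for hESC LIS1+/- (0.80 ± 0.20, adjusted p = 0.00158). The groups did not overlap, and Day 5 was between 84.3 and 105 CPM. In LIS1+/+ the same change was 0.91 ± 0.20, and the difference between the courses was -0.11 ± 0.28 (adjusted p = 0.967), which does not show that they were equal. Of 30 tested genes of LIS1, dynein and dynactin 7 rose and 6 fell, both below the background shares. The heavy chain DYNC1H1, which holds the motor, did not pass (-0.04 ± 0.17), nor did DCTN1, the large dynactin subunit that binds microtubules (0.00 ± 0.27). Dynactin subunits ACTR1B and DCTN3 rose by 1.63 ± 0.25 and 1.11 ± 0.23, and NDEL1, a partner that links LIS1 to dynein, fell to 23.5, 32.7 and 32.5 CPM at Day 12, against 61.9, 42.4 and 58.8 CPM in hESC (-0.85 ± 0.23, adjusted p = 0.003).

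The microtubule genes moved in both directions. Of 31 tested tubulins and microtubule-associated proteins 14 rose (45.2%) and 10 fell (32.3%), beside 26.7% and 25.4% over all tested genes. TUBA1A, the main alpha tubulin of new neurons and also a lissencephaly gene, rose to 8558, 7618 and 8580 CPM at Day 12, against 2599, 2001 and 2016 CPM in hESC (1.90 ± 0.18, adjusted p = 1.14e-09). MAP6, which stabilises microtubules in neurons, rose by 5.47 ± 0.30, and STMN4, a stathmin of neurons, had no count in hESC and was at least 48.2-fold higher. TUBB6, TUBA4A and TUBB2A fell (-2.78 ± 0.21, -6.04 ± 0.47 and -1.44 ± 0.15). Tubulin genes are similar to each other, so tags of close members could be split between them.

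Proliferation genes showed no common direction. DNA replication genes rose in 5 of 37 tested cases (13.5%) and fell in 12 (32.4%). Mitosis genes rose in 13 of 35 (37.1%) and fell in 4 (11.4%). The shares over all tested genes were 26.7% rising and 25.4% falling. MKI67, a marker of cycling cells, rose to 76.1, 80.8 and 90.1 CPM at Day 12, against 20.8, 27.9 and 39.0 CPM in hESC (1.47 ± 0.24). CDC6, which loads the replicative helicase, fell to 34.0, 36.4 and 36.5 CPM, against 102.3, 137 and 118 CPM (-1.74 ± 0.18), and the helicase subunit MCM5 fell by 1.58 ± 0.18. Thus the groups of MKI67 and CDC6 separated fully but in opposite directions. Among inhibitors of cyclin-dependent kinases CDKN1C, an imprinted gene, rose by 2.09 ± 0.21 and CDKN2A fell by 3.81 ± 0.26. MYC, a driver of growth, fell to 4.33, 3.41 and 5.13 CPM, against 131, 154 and 149 CPM (-5.07 ± 0.30, adjusted p = 2.259e-13). Of the paired splicing regulators that change over in neural cells, PTBP1, the repressor of neural exons, fell by 0.63 ± 0.14 and its neural relative PTBP2 rose by 0.81 ± 0.23.

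Imprinted genes, which are expressed from 1 parental copy, rose in 8 of 17 tested cases and fell in 3. MAGEL2, from the Prader-Willi region, rose to 36.5, 38.1 and 29.6 CPM at Day 12, against 3.79, 7.66 and 7.57 CPM in hESC (2.39 ± 0.33, adjusted p = 1.063e-06), and its neighbour NDN rose by 1.49 ± 0.17. PHLDA2, a growth restrictor of the placenta, fell to 3.71, 2.28 and 6.55 CPM, against 78.3, 67.6 and 56.3 CPM (-3.96 ± 0.40, adjusted p = 8.412e-09). The groups of all 3 genes were separate. G1 cyclins and their inhibitors rose in 8 of 20 tested cases (40.0%) and fell in 6 (30.0%), and p53 targets in 6 (35.3%) and 4 (23.5%) of 17. Cholesterol synthesis genes rose in 7 of 22 (31.8%) and fell in 2 (9.09%), and immediate early genes in 3 (18.8%) and 6 (37.5%) of 16. Over all tested genes 26.7% rose and 25.4% fell, so the p53 shares and the rising cholesterol share lay near background. CCNE1 and CCND3, cyclins of G1, fell (-1.56 ± 0.23 and -1.39 ± 0.22), and CCND2 did not pass (-0.09 ± 0.18). CDKN1A, the best known p53 target, rose by 2.15 ± 0.82, a call lost in 4 of the 6 fits that left out 1 library, INSIG1, a sterol sensor, rose by 1.11 ± 0.22, and IER3, an immediate early gene, fell by 1.26 ± 0.22. Surface ectoderm genes fell in 9 of 13 tested cases and rose in 2, with the keratin KRT19 at 33.4, 18.5 and 12.0 CPM at Day 12 against 208, 146 and 162 CPM in hESC (-3.09 ± 0.48).

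Genes of other lineages were in part lower at Day 12 than in hESC. Of 18 tested mesenchyme genes 4 rose (22.2%) and 6 fell (33.3%), not far from the shares over all tested genes (26.7% and 25.4%). Of 7 tested endoderm, liver and yolk sac genes none rose and 5 fell (71.4%). APOE, a lipid carrier, fell to 435, 179 and 302 CPM at Day 12, against 2861, 3094 and 3211 CPM in hESC (-3.33 ± 0.32), and AFP, the fetal serum protein of yolk sac and liver, to 0.618, 0.569 and 0.855 CPM, against 70.1, 68.1 and 49.0 CPM (-6.39 ± 1.25). FOXF1, FOXC1 and MEOX1, factors of mesoderm and mesenchyme, rose (log2 fold change 5.99, 4.29 and 4.10). TWIST1, a mesenchymal factor, fell to 4.95, 2.28 and 3.42 CPM, against 96.0, 80.7 and 75.4 CPM (-4.64 ± 0.67). Every hESC library thus held AFP and TWIST1 above every Day 12 library. Summed endoderm markers, 5 genes, ranged from 7.12 to 9.96 CPM per library at Day 12 against 57.7 to 90.9 CPM in hESC, 2 of them with no count at Day 12. The wider list of endothelium and blood summed to between 15.4 and 19.7 CPM per library at Day 12 against between 112 and 142 CPM in hESC. Of its 4 tested members 3 fell and none rose, among them KDR, a receptor for the growth factor VEGF (-5.03 ± 0.82), and FLT1, another such receptor, with 3 counts at Day 12 against 440 in hESC. The 4 markers of endothelium and blood taken to define those cells together did not exceed 1.86 CPM in any of the 6 libraries, and the 4 of surface ectoderm did not exceed 1.89 CPM. Basement membrane chains divided, with COL4A6 rising to 823, 751 and 676 CPM, against 43.6, 29.8 and 42.9 CPM (4.28 ± 0.26), and COL4A1 falling to 39.0, 45.5 and 40.2 CPM, against 230, 282 and 266 CPM (-2.64 ± 0.16).

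The Day 5 libraries show how far the course had gone by then. On a scale of log2(CPM + 1), 711 of the 804 genes that fell at least 4-fold (88.4%) and 881 of the 1180 that rose as much (74.7%) had a Day 5 mean past the midpoint between hESC and Day 12. The median gene had made 89.8% of its fall and 70.4% of its rise. Rising genes of the forebrain list were past it in 13 of 13 cases and those of the WNT list in 19 of 20, while early neuronal genes were past it in 6 of 13 and genes of glycolysis and low oxygen in 3 of 10. These shares are descriptions of group means, without a test.

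Other genes left the range of both ends at Day 5. At an adjusted p under 0.05 against the mean of the ends, and with all 3 Day 5 libraries outside all 6 libraries of the ends, 940 genes stood apart (7.7% of tested genes), 445 above (3.64%) and 495 below (4.05%). CYP1A1, a detoxifying oxidase induced by the aryl hydrocarbon receptor, had no count in hESC, 33.6, 23.0 and 38.9 CPM at Day 5 and 0.618, 2.85 and 2.00 CPM at Day 12 (6.67 ± 0.51 above the mean of the ends, adjusted p = 1.78e-09). NOS2, the inducible nitric oxide synthase, had 3.16, 2.70 and 5.41 CPM in hESC, 318, 553 and 436 CPM at Day 5 and 87.2, 51.8 and 57.6 CPM at Day 12 (4.77 ± 0.23). FOXE3, a factor of the lens, peaked likewise (4.92 ± 0.41), as did MYO3B, FAM69C and ARHGAP15. Regulators of the eye field and hypothalamus were also highest at Day 5. RAX, which founds the eye field, had 6.31, 6.31 and 10.8 CPM in hESC, 237, 60.3 and 215 CPM at Day 5 and 12.4, 9.10 and 7.41 CPM at Day 12 (4.30 ± 0.47, adjusted p = 5.11e-06). Its lowest Day 5 library was replicate 2, and without it the value was 4.71. SIX6 and VAX2, of the optic vesicle, followed the same course (3.37 ± 0.46 and 4.24 ± 0.44). The imprinted Notch-like ligand DLK1 had 189, 138 and 166 CPM in hESC, 2211, 3010 and 2310 CPM at Day 5 and 423, 417 and 363 CPM at Day 12 (3.29 ± 0.19).

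Among genes that dipped at Day 5, ANXA3, a membrane-binding annexin, had 121, 118 and 86.6 CPM in hESC, no count at Day 5 and 1.24, 0.854 and 0.570 CPM at Day 12. RARRES2, which encodes the chemoattractant chemerin, had 238, 225 and 224 CPM in hESC, 0.374, 2.56 and 0.878 CPM at Day 5 and 26.0, 18.8 and 24.8 CPM at Day 12 (-5.81 ± 0.46). For ANXA3 the return at Day 12 was of few tags and its Day 12 libraries stayed far below the hESC ones, as those of RARRES2 did. CD9, a tetraspanin, had 298, 289 and 303 CPM in hESC, 4.49, 7.31 and 3.22 CPM at Day 5 and 57.5, 62.9 and 58.7 CPM at Day 12 (-4.75 ± 0.22). PARP12, the immunoproteasome subunit PSMB8 and the actin nucleator COBL completed the deepest 6. VIM dipped as well, to 2674, 3087 and 3007 CPM at Day 5 (-1.15 ± 0.12), although its ends did not differ past the threshold.

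**Figure D4:**
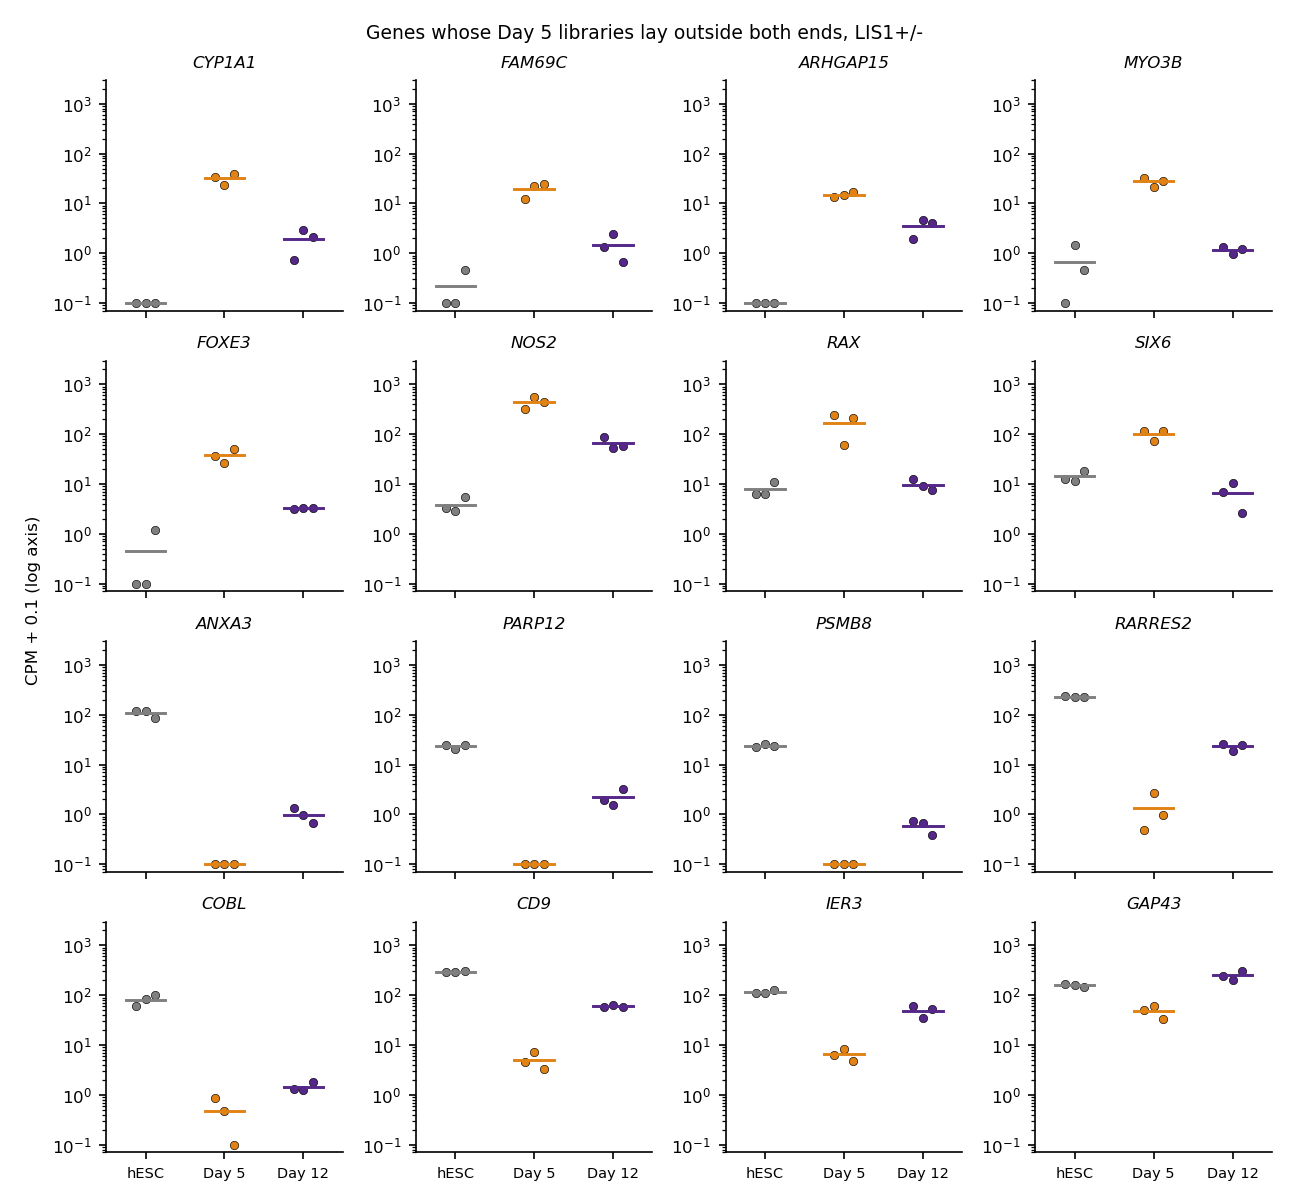
Level of 16 genes whose 3 Day 5 LIS1+/- libraries lay outside all libraries of both ends, by library at hESC, Day 5 and Day 12 (CPM + 0.1, log axis), with bars for group means. RAX and NOS2 peak at Day 5 and fall back, while CD9 and RARRES2 dip to a few CPM and recover in part.

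The last comparison asks where the LIS1+/- course differed from the LIS1+/+ course. The wild-type course gave 6486 changed genes (53.1%), 3431 higher and 3055 lower, and it shares no library with the LIS1+/- course. The difference of the courses itself passed for 46 genes (0.377%), 2 with a higher (0.0164%) and 44 with a lower log2 change (0.36%) in LIS1+/-, and 991 genes had an unadjusted p under 0.05. In 24 of the 46 all LIS1+/- libraries lay above all LIS1+/+ libraries in hESC and below them at Day 12. The 46 were chosen by a test on these same libraries, which favours such a pattern, so the count is not separate evidence. Its share over all tested genes was not computed. In LIS1+/- itself 26 of the 46 fell, 12 rose and 8 did not pass. The count of 44 depends on single libraries: it was 123 without Day 12 LIS1+/+ replicate 2 and 11 without Day 12 LIS1+/- replicate 3.

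DLK1 and PKDCC shared the smallest adjusted p. DLK1 had 423, 417 and 363 CPM at Day 12 and 189, 138 and 166 CPM in hESC in LIS1+/-, a change of 1.29 ± 0.23. In LIS1+/+ it had 696, 1228 and 1580 CPM at Day 12 and 66.7, 64.8 and 66.4 CPM in hESC, a change of 4.15 ± 0.26. The difference was -2.86 ± 0.33 (adjusted p = 7.439e-05), and it arose at both ends, since LIS1+/- was higher in hESC and lower at Day 12 in every library. PKDCC, a secreted tyrosine kinase, fell in both genotypes but further in LIS1+/-, to 30.3, 35.0 and 29.1 CPM at Day 12 against 162, 112 and 118 CPM in LIS1+/+ at that stage (difference -1.94 ± 0.24, adjusted p = 7.439e-05). The actin crosslinker FLNC and the secreted SPP1 differed by -1.87 ± 0.28 and -3.76 ± 0.56. All 4 kept their call in each of the 12 fits that left out 1 library.

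In 5 of the 46 genes both courses passed with opposite signs. TWIST1 was at 4.95, 2.28 and 3.42 CPM at Day 12 and 96.0, 80.7 and 75.4 CPM in hESC in LIS1+/-, and at 200, 17.0 and 68.1 CPM and 22.4, 28.1 and 24.2 CPM in LIS1+/+. The changes were -4.64 ± 0.67 in LIS1+/- and 1.93 ± 0.54 in LIS1+/+ (difference -6.57 ± 0.86, adjusted p = 0.00155). COL3A1, a fibrillar collagen of mesenchyme, differed by -5.71 ± 1.04, with 5.56, 2.85 and 3.13 CPM in LIS1+/- against 203, 15.1 and 64.2 CPM in LIS1+/+ at Day 12. The 3 wild-type Day 12 libraries spread widely for both genes, with replicate 1 the highest, and without it the differences were -5.45 for TWIST1 and -4.50 for COL3A1. The call of COL3A1 was lost in 8 of 12 fits that each left out 1 library (adjusted p up to 0.126), while that of TWIST1 was kept in all 12. NID1, a basement membrane linker, moved by -1.0 ± 0.22 in LIS1+/- and 1.04 ± 0.22 in LIS1+/+.

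Factors of the developing forebrain were also among the 46. SOX3, a relative of SOX2 in progenitors, had 820, 763 and 738 CPM at Day 12 and 408, 352 and 331 CPM in hESC in LIS1+/-, and 925, 1923 and 2057 CPM and 304, 263 and 261 CPM in LIS1+/+ (difference -1.48, adjusted p = 0.0116). ZIC2, a factor of the dorsal forebrain, was 1 of the 2 genes whose signed log2 change was higher in LIS1+/-, at 651, 570 and 567 CPM at Day 12 and 207, 187 and 200 CPM in hESC, against 399, 364 and 367 CPM and 231, 240 and 258 CPM in LIS1+/+ (0.96 ± 0.19, adjusted p = 0.0199). CD9 was the other, having fallen less in LIS1+/- (1.14 ± 0.25, adjusted p = 0.0355). ZIC2 lost its call in 5 and CD9 in 10 of 12 fits that each left out 1 library, with adjusted p up to 0.0702 for ZIC2 and 0.107 for CD9. MEIS2, a homeobox gene of the forebrain and of the forming eye, had 6.18, 7.40 and 11.7 CPM at Day 12 in LIS1+/-, against 58.2, 39.6 and 27.7 CPM in LIS1+/+ (difference -2.71, adjusted p = 0.0348), and its call was lost in 7 of the 12 fits.

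**Figure D5:**
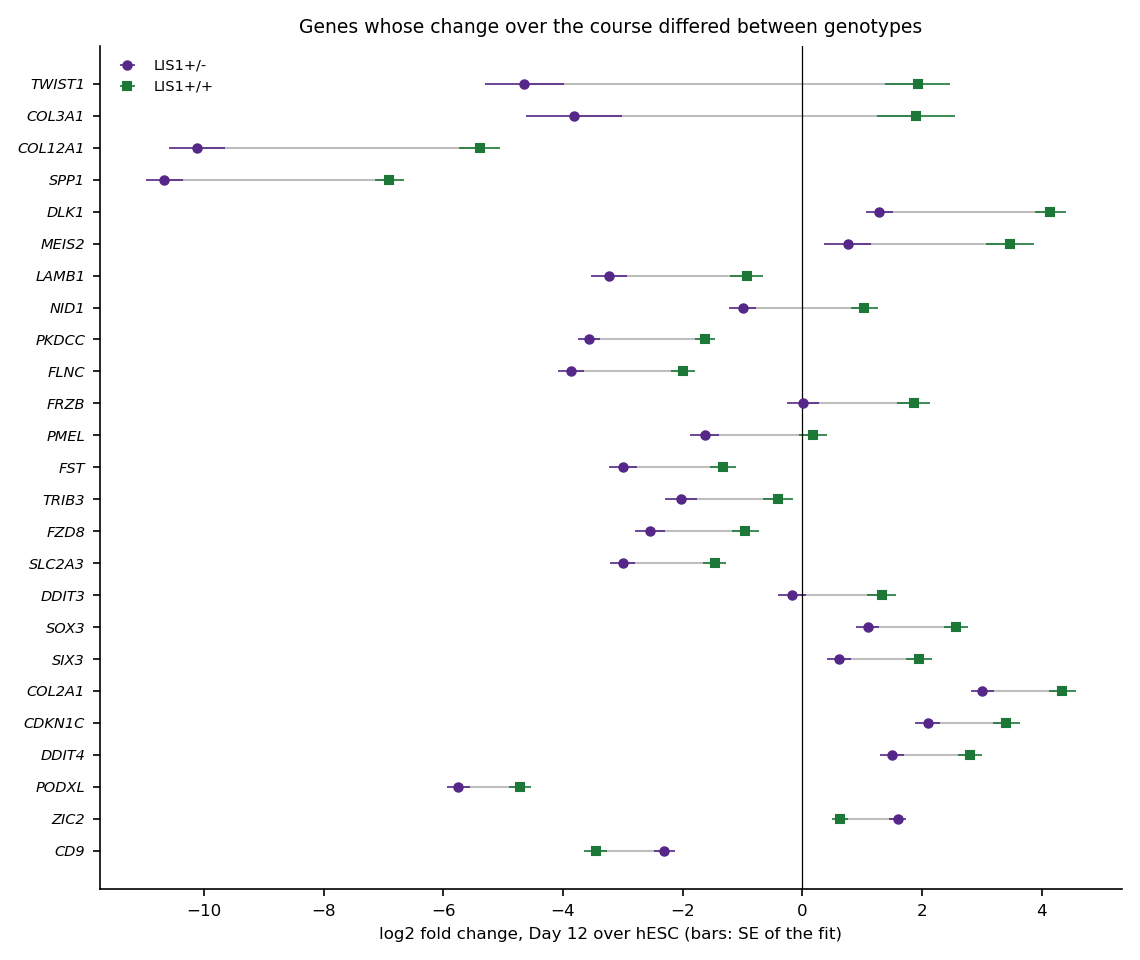
Log2 fold change from hESC to Day 12 with its SE, in LIS1+/- (circles) and LIS1+/+ (squares), for 25 list members and other named genes whose difference passed. Most circles lie left of their squares, with ZIC2 and CD9 the exceptions, and TWIST1 and COL3A1 lie on opposite sides of 0 in the 2 genotypes.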

How the data were processed

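Bulk RNA of 18 WIBR3 libraries was measured by MARS-seq in 6 groups of 3. Raw counts per gene were deposited by the authors, 1 file per library with 26485 gene rows and no normalization. Per the submitters' processing notes the tools were cutadapt, STAR and DESeq2, and the builds GRCh37 and hg38, with no roles or versions. Neither strand use nor collapsing of molecular identifiers is stated, so overlapping and antisense genes are uncertain. The 5 closing rows that name no gene were dropped: no feature (21.4% to 22.8% of the sum at Day 12 LIS1+/-, 13.1% to 19.1% in hESC LIS1+/-), ambiguous, not unique and the others.

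Genes were filtered with filterByExpr, scaled with TMM and tested with edgeR 4.0.16 in R 4.3.3 (robust quasi-likelihood F-test, two-sided, 1 fit of 18 libraries, 12 residual degrees of freedom, Benjamini-Hochberg adjusted p under 0.05 over 12215 genes). Errors are SE of log2 fold changes or SD of CPM. The pipeline was tested on simulated data. Alternatives were DESeq2 1.42.0, its size factors, library totals, no filter, smaller fits, the replicate number as a block, and libraries left out. Same-numbered Day 12 and hESC libraries correlated at 0.038, -0.017 and 0.0221 in their deviations from the group means. These values gave no sign that the numbers pair the libraries, which does not exclude a pairing. Replicate libraries of the 6 differed from each other by 4 to 6.85 times the sampling noise (chi-square per degree of freedom), and those of the other 4 groups by 3.4 to 15.1 times.

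The libraries, gene lists and rules were chosen with earlier results of these data known. Named by rule were PAFAH1B1; the 12 largest rises and 12 largest falls whose libraries did not overlap and whose larger mean was at least 10 CPM; up to 4 members of each of 42 textbook lists by smallest adjusted p and other members with a defining role; the 6 highest and 6 lowest genes at Day 5; and the 5 smallest p in each direction for the difference of courses. Promoter windows are from RefSeq. Figures used Matplotlib 3.10.9 and Python 3.11.15. Some genes enter the fits and the counts over lists but are not reported here by name.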

Additional observations from a re-analysis of the deposited data

Results flagged for a closer look

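The change from hESC to Day 12 differed between LIS1+/- and LIS1+/+, by the test of the difference itself (edgeR, adjusted p under 0.05), for 25 genes named here. Values are log2 change in LIS1+/- minus log2 change in LIS1+/+.

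The calls of 7 held in each of the 12 fits that left out 1 library and under each other setting. They were the mesenchymal factor TWIST1 (-6.57), SPP1 (-3.76), DLK1 (-2.86), the basement membrane linker NID1 (-2.04), PKDCC (-1.94), FLNC (-1.87) and the activin antagonist FST (-1.68).

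The calls of the other 18 were lost in 1 to 11 of those 12 fits. Among matrix genes they were COL3A1 (-5.71), COL12A1 (-4.72), the laminin chain LAMB1 (-2.30) and COL2A1 (-1.33). Among genes of the forebrain and eye they were MEIS2 (-2.71), the pigment granule protein PMEL (-1.81), SOX3 (-1.48) and SIX3 (-1.34), with ZIC2 (0.96) in the other direction. WNT pathway members were the soluble inhibitor FRZB (-1.85) and the receptor FZD8 (-1.59). Genes of the stress and low-oxygen responses were TRIB3 (-1.63), SLC2A3 (-1.53), DDIT3 (-1.49) and DDIT4 (-1.31). The cell cycle inhibitor CDKN1C (-1.31) and the stem cell surface protein PODXL (-1.03) made up the rest, with the tetraspanin CD9 (1.14) in the other direction.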

How the results depend on the processing

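Counts of genes have no direction to reverse. Among the single genes followed, most of which had passed in the reported fit, no fold change reversed its direction under any alternative run. The counts over the course from hESC to Day 12 kept within 1.5 times of 3257 higher and 3105 lower under all of them, and ranged from 2880 to 3017 higher and 2778 to 2932 lower with 1 library left out. The difference of the courses did not: its 2 higher and 44 lower genes became 18 and 154 without the filter, 18 and 102 with DESeq2, 4 higher and 31 lower in a fit of the 12 libraries concerned, and 27 and 131 without the 3 libraries set apart. With 1 library left out they ranged from 0 (without hESC LIS1+/+ replicate 3) to 15 higher and from 11 (without Day 12 LIS1+/- replicate 3) to 123 lower (without Day 12 LIS1+/+ replicate 2, which also gave the 15). The cause was not tested. Genes above both ends at Day 5 ranged from 437 to 611 and those below from 481 to 598 with 1 library left out, and without the 3 libraries together 731 were above. With the replicate number as a block the course gave 3251 higher and 3098 lower genes, the difference 2 and 41, and Day 5 443 above and 490 below. There was no sign that the numbers pair the samples, although a pairing was not excluded.

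Among single genes the course was weaker, with the call lost, in 94 of 4253 values under other settings and 268 of 3671 with a library left out, over 612 genes. Scaling to library totals moved 14 cholesterol synthesis genes to higher, against 7 in the reported fit. Depth limits genes with few counts, for which ratios and bounds are given.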
